A study of Homo sapiens and Mus musculus with 20 samples.

Results

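The genes described here are 10 genes of the myofibroblast contractile apparatus and of the response to transforming growth factor beta (TGF-β), read in IMR90 cells, an established human fetal lung fibroblast line. They were chosen by symbol, with earlier results of these data known, namely ACTA2, TAGLN, CNN1, MYL9, TPM1, TPM2, CCN1, CCN2, TGFB1 and TGFBI. All 10 were among the 17554 genes listed in at least 1 of the 3 IMR90 comparisons, and all 10 were listed in each of the 3. RNA sequencing was done on 20 libraries, of which the 12 from IMR90 are used here and the 8 from mouse muscle are not. The study asked how histone lactylation bears on cellular senescence. Every IMR90 library was of wild-type genotype and came from fibroblasts of this 1 line. A485 is an inhibitor of the acetyltransferase p300, and the cells treated with it were compared with Control2. MS-275 is an inhibitor of class I histone deacetylases, and these cells were compared with Control3. Pyruvate, a product of glycolysis that senescent IMR90 cells were given, was compared with Control6. The treatment of all 3 controls is labelled as none, each group held 2 libraries, and no library served in more than 1 comparison. Nothing in the labels says that the 2 libraries came from separate cultures, so the p-values measure only the spread between these libraries, which may be technical.

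A myofibroblast is a fibroblast that has taken on contractile features of smooth muscle. TGF-β is secreted in a latent form, and once released it binds receptor kinases that phosphorylate SMAD proteins, which enter the nucleus and raise transcription of matrix and contractile genes. Many contractile genes are also targets of serum response factor (SRF), which is joined by the actin-regulated cofactors MRTFA and MRTFB, and CCN1 and CCN2 are well-known targets of the mechanosensitive cofactors YAP and TAZ, which act through TEAD factors.

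The values are normalised read counts, that is reads per gene divided by a size factor of the library. The reads of each library were recovered by dividing its values by what 1 read was worth, and over the listed genes they summed to 39194881 to 40557867 in the A485 experiment, 41077361 to 46971227 in the MS-275 experiment and 24179065 to 30156436 in the pyruvate experiment. The recovered reads served for count tests in the A485 experiment alone, and the sums of the other experiments are to be taken as estimates. In all 12 libraries the fibroblast markers were listed, 10 of 10, whereas the smooth muscle myosin MYH11, the epithelial markers CDH1, KRT5 and SFTPC, the endothelial markers PECAM1 and CDH5 and the immune markers PTPRC, CD68 and CD3E were not listed. Other markers of these cell types were. In the A485 and MS-275 experiments 5 of 6 smooth muscle, 2 of 5 epithelial, 3 of 5 endothelial and 1 of 5 immune markers were listed. In the pyruvate experiment 4 of 6, 0 of 5, 2 of 5 and 0 of 5 were, in the same order. A gene was called where limma gave an adjusted p (Benjamini-Hochberg, over all genes tested) under 0.05 and an absolute log2 fold change above 1.

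In A485-treated cells the contractile genes fell together, and TGFBI fell with them, whereas CCN1 and CCN2 lay above the control. Limma called 7 of the 10 members lower and 0 higher. Among all 16084 genes tested, 7.06% were called lower and 3.31% higher. The median log2 fold change was -1.60 over the 10 members and 0.01 over all genes tested. Since these are bulk samples, fewer cells that express a gene and less RNA per cell cannot be told apart.

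ACTA2, which encodes α-smooth muscle actin and is the usual marker of a myofibroblast, lies on the minus strand of chromosome 10 (88935074 to 88991339, hg38). Its normalised read count was 14301 and 15727 in the Control2 libraries and 582 and 678 in the A485 libraries. Both treated libraries were far below both controls, and the mean was 23.8-fold lower (log2 fold change -4.57, SE 0.17, limma adjusted p = 0.000721). The 250 bases before its RefSeq start (GRCh38.p14, chr10:88952774-88953023, minus strand) are shown because ACTA2 fell furthest of the members under A485. Capitals mark matches to the CArG box, the site of SRF, with at most 1 letter off.
ACTA2: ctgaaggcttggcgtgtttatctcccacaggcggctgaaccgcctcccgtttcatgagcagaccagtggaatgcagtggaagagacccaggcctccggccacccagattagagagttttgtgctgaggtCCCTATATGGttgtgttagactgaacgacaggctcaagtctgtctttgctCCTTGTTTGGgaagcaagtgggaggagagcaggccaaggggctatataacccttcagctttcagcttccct
These 2 matches, CCCTATATGG and CCTTGTTTGG, begin 121 and 71 bases before the start, and 2.9% of 27305 promoter windows of the same length held at least 2. The looser search was chosen after the strict CArG box, present in 1.14% of windows, had been found in 0 of the 7 members with a promoter entry (ACTA2, CNN1, TPM1, TPM2, CCN2, TGFB1 and TGFBI). Both strands were searched here and for the motifs below, except for TATAAA, which was searched on the strand of the gene alone. No match in the windows shown overlapped another.

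TAGLN (chromosome 11, 117199370 to 117207464, plus strand) encodes transgelin, an actin-bundling protein of smooth muscle. It was at 33855 and 39814 in Control2 and at 8462 and 7476 under A485. The groups did not overlap, and TAGLN fell by 2.21 on the log2 scale (SE 0.19, limma adjusted p = 0.00268). CNN1 (chromosome 19, 11538767 to 11550323, plus strand) encodes calponin, which binds actin and slows myosin. It stood at 3284 and 3601 in Control2 and at 406 and 314 under A485. Here too both treated libraries were well below both controls, with a mean 9.57-fold lower (log2 fold change -3.26, SE 0.21, limma adjusted p = 0.0015).

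The other contractile members fell less. MYL9 (chromosome 20, 36541497 to 36551447, plus strand), the regulatory light chain through which myosin is switched on, was at 57911 and 70890 in Control2 and at 28462 and 31275 under A485 (log2 fold change -1.10, SE 0.22, limma adjusted p = 0.0291). The tropomyosins lie along the actin filament and govern access of myosin to it. TPM1 (chromosome 15, 63042620 to 63071915, plus strand) was at 53159 and 37924 in Control2 and at 10908 and 13696 under A485 (log2 fold change -1.88, SE 0.24, limma adjusted p = 0.00875). TPM2 (chromosome 9, 35681992 to 35690056, minus strand) was at 86127 and 91466 in Control2 and at 36967 and 34374 under A485 (log2 fold change -1.32, SE 0.21, limma adjusted p = 0.0168). In none of these genes did the groups overlap, but the calls of MYL9 and TPM2 ended when any 1 of the 4 libraries was left out, with adjusted p from 0.0769 to 0.198 for MYL9 and from 0.0739 to 0.134 for TPM2. The call of TPM1 ended without A485 replicate 1 (adjusted p = 0.105) or A485 replicate 2 (adjusted p = 0.0689).

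TGFBI (chromosome 5, 136028988 to 136063818, plus strand) encodes a matrix protein named for its induction by TGF-β. It was at 60772 and 101641 in Control2 and at 5507 and 6917 under A485. Its controls differed from each other more than those of ACTA2 did, yet both treated libraries were far lower, and the mean was 13.1-fold lower (log2 fold change -3.67, SE 0.29, limma adjusted p = 0.00239). TGFB1 (chromosome 19, 41301587 to 41353922, minus strand), the ligand itself, was at 8475 and 6552 in Control2 and at 6394 and 5345 under A485. Both treated libraries were just below the lower control, and the difference did not pass the test (log2 fold change -0.35, 95% confidence interval -0.84 to 0.14, limma adjusted p = 0.294, and 0.04 with equal library totals).

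CCN1 and CCN2 encode matricellular proteins, secreted proteins that signal from the matrix, and both lay above the control. CCN1 (chromosome 1, 85580761 to 85584589, plus strand) was at 34830 and 43137 in Control2 and at 59042 and 75217 under A485 (log2 fold change 0.78, SE 0.24, limma adjusted p = 0.0901). CCN2 (chromosome 6, 131948176 to 131951372, minus strand) was at 27249 and 57871 in Control2 and at 104469 and 87888 under A485 (log2 fold change 1.27, SE 0.39, limma adjusted p = 0.0841). The groups did not overlap in either gene, and neither passed the test. The CCN2 controls were far apart, and without Control2 replicate 2, the higher of them, CCN2 was called higher (log2 fold change 1.81, limma adjusted p = 0.0448), whereas without Control2 replicate 1 its log2 fold change was 0.73. Not overlapping is common in this comparison, at 61% of all genes tested, beside 10 of the 10 members.

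The 250 bases before the RefSeq start of CCN2 (GRCh38.p14, chr6:131951373-131951622, minus strand) are shown because CCN2 moved against the contractile genes. Capitals mark GGAATG, the core of the site bound by TEAD factors.
CCN2: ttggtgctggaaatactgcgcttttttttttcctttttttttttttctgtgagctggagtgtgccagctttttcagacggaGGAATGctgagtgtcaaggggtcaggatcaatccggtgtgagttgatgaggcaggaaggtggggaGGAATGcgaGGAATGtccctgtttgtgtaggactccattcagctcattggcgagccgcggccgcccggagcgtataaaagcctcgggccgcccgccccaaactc
The 3 matches begin 169, 104 and 95 bases before the start. Of the 27305 promoter windows 0.0769% held at least 3 matches and 11.7% held at least 1. ACTA2 was the other of the 7 members to hold GGAATG, once, 183 bases before its start. TGANTCA, the site of AP-1 factors, was in 0 of the 7 and in 6.5% of all windows, CAGACA, a SMAD-binding sequence, was in 2 of the 7 (CNN1 and TPM1) and in 13.4%, and TATAAA was in 1 of the 7 (CCN2, 32 bases before the start) and in 7.19%.

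**Figure D1:**
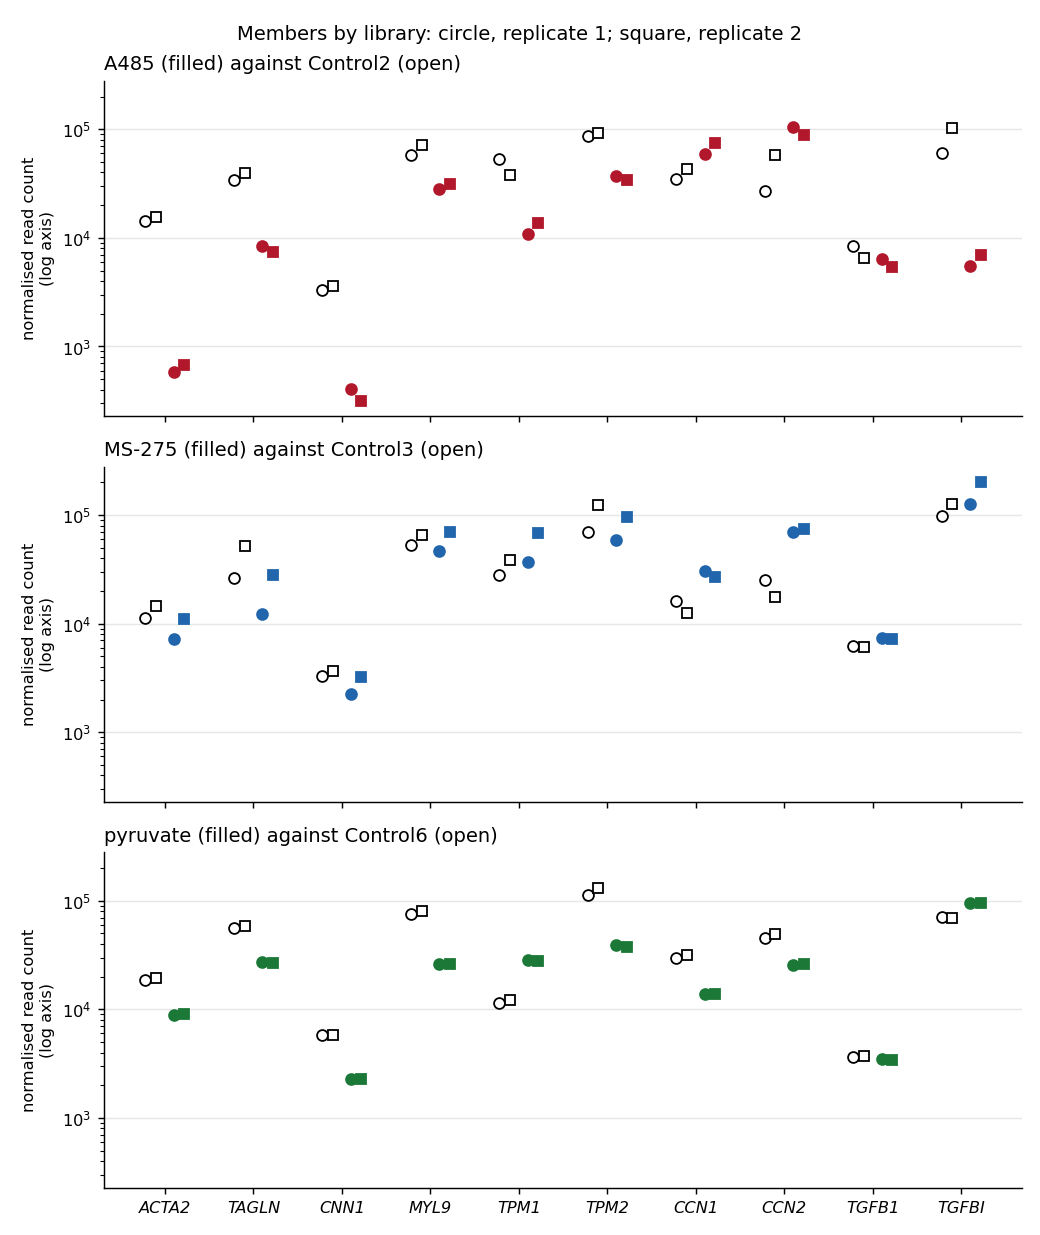
Normalised read count (log axis) of each member in each library of the 3 comparisons, with control libraries as open symbols, treated libraries as filled symbols, replicate 1 as circles and replicate 2 as squares. Under A485 the filled symbols of ACTA2 (582 and 678) lie far below the open ones (14301 and 15727), and under pyruvate TPM1 is the contractile member whose filled symbols lie above the open ones.

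The A485 effects were larger or smaller according to how libraries were scaled. When all libraries were given the same total, the median over all genes tested went to 0.40 on the log2 scale, and the share of called genes that were higher went from 31.9% to 65.1%. Then 5 members were called lower (ACTA2, TAGLN, CNN1, TPM1 and TGFBI) and 2 higher (CCN1 at 1.18 and CCN2 at 1.66), and MYL9 at -0.71 and TPM2 at -0.92 were no longer called, all on the log2 scale. Quantile normalization, which moved the median of all genes to 0.12, gave the same 5 and 2 calls. Of the 10 fibroblast markers 9 were called lower under A485, with a summed normalised read count of 1368480 to 1530960 in Control2 and 430004 to 503673 under A485, and 3 of the 10 are also in the list of TGF-β response genes described below. The summed level of the 5 listed smooth muscle markers, of which all but SYNPO2 are in the lists below, was 27277 to 31527 in Control2 and 1424 to 1696 under A485. Of these 5 markers 3 were called lower and 0 higher. The endothelial markers, 3 of 5 listed, moved with the members as well, from 508 to 1289 in Control2 to 127 to 189 under A485, and VWF (log2 fold change -5.91) and TEK (-2.31) were called lower. The epithelial markers, 2 of 5 listed, summed to 88.1 to 169 and to 184 to 210, and 1 was called higher and 1 lower. The immune ones, 1 of 5 listed, summed to 12.8 to 17.1 and to 9.27 to 21.4. The part of these markers in the fall of the contractile genes was not tested.

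In MS-275-treated cells no member passed the test, and limma called 0 of 15883 genes (0%). In simulated data for this comparison, a log2 shift of 2 was built into 100 genes, and 0% of them were recovered. The same shift was recovered at 80% in the simulated A485 data and at 99% in the simulated pyruvate data. The simulated libraries were drawn independently, whereas real libraries of the same replicate number in this comparison deviated together (r = 0.73). The simulated share may therefore not hold for the real data, and the 0 calls cannot tell an absent effect from one of this size. At an unadjusted p under 0.05 there were 1730 genes, 10.9% of those tested, and 2 members, CCN1 and CCN2. The libraries of this experiment varied widely within their groups. Of the 10 members 4 were lower and 5 higher within both replicate numbers, near the 40.4% and 38.6% of all genes tested. The lower ones were the contractile ACTA2, TAGLN, CNN1 and TPM2, whereas the contractile TPM1 and the members of the CCN family were among the higher.

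CCN2 was at 25194 and 17419 in Control3 and at 69346 and 74205 under MS-275. Both treated libraries were far above both controls, with a log2 fold change of 1.78 (SE 0.33, limma adjusted p = 0.222). CCN1 was at 16312 and 12420 in Control3 and at 30295 and 26727 under MS-275, again without overlap (log2 fold change 0.999, SE 0.31, limma adjusted p = 0.371). Within replicate numbers 1 and 2 the log2 difference was 1.46 and 2.09 for CCN2, and 0.89 and 1.11 for CCN1. CCN2 was the 1 member that differed by more than 1 on the log2 scale in the same direction within both numbers, beside 11.7% of all genes tested.

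ACTA2 was at 11192 and 14609 in Control3 and at 7260 and 11087 under MS-275. The treated libraries were just below the controls, and the within-number log2 differences were -0.62 and -0.40. TAGLN was at 26121 and 51751 in Control3 and at 12287 and 27734 under MS-275, so the higher treated library lay above the lower control, and within both numbers it was lower, by -1.09 and -0.90. CNN1 was at 3288 and 3693 in Control3 and at 2262 and 3204 under MS-275, with within-number differences of -0.54 and -0.20. TPM2 was at 70282 and 124045 in Control3 and at 59112 and 96133 under MS-275 and overlapped (within-number differences -0.25 and -0.37). In these 4 genes replicate 2 was the higher library in both groups, as it also was in MYL9, TPM1 and TGFBI.

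MYL9 was at 52543 and 65721 in Control3 and at 46369 and 69174 under MS-275. It was the 1 member whose direction differed between the replicate numbers, at -0.18 and 0.07. TPM1 was at 28306 and 38497 in Control3 and at 36892 and 68686 under MS-275, with overlap and within-number differences of 0.38 and 0.84. TGFBI was at 97744 and 125720 in Control3 and at 126610 and 201158 under MS-275, just clear of the controls (0.37 and 0.68). TGFB1 hardly varied, at 6254 and 6151 in Control3 and 7422 and 7157 under MS-275 (0.25 and 0.22). In all, 6 of the 10 members did not overlap between the groups, beside 38.9% of all genes tested, and 5 were higher and 4 lower within both numbers, beside 38.6% and 40.4% of all genes. The limma intervals were wide, as for TAGLN (log2 fold change -0.99, 95% confidence interval -2.47 to 0.48) and TPM1 (0.61, -0.50 to 1.71), so these tests do not show that the members were unchanged. With all libraries at the same total the all-gene median was -0.15, and no member changed direction. Fibroblast markers summed to 783239 to 1279220 in Control3 and 645740 to 1145860 under MS-275, smooth muscle markers to 28111 to 28934 and 25735 to 26931.

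**Figure D2:**
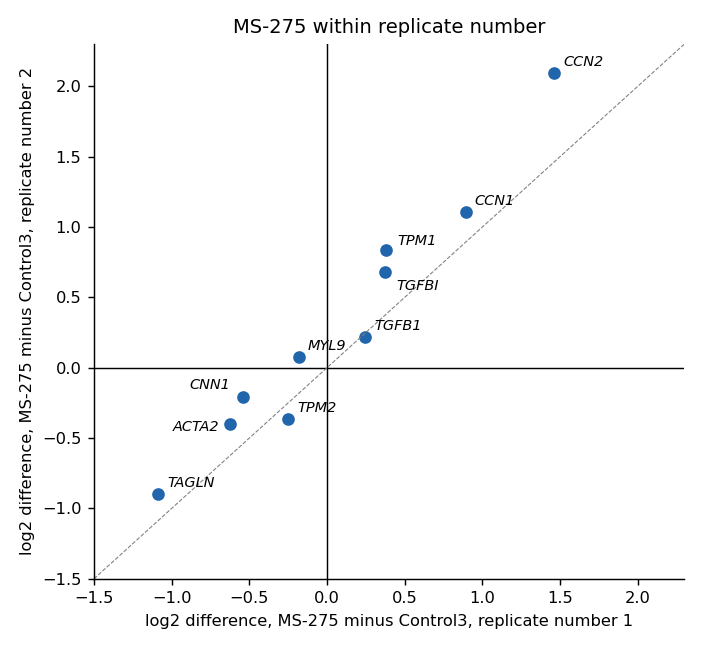
Log2 difference, MS-275 minus Control3, of each member within replicate number 1 (x axis) and number 2 (y axis), with equal differences along the dashed line. CCN2 (1.46 and 2.09) and CCN1 (0.89 and 1.11) are at the upper right, and TAGLN (-1.09 and -0.90) is at the lower left.

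In the pyruvate experiment the contractile members fell with 1 exception, TPM1, which rose. Limma called 6 members lower and 1 higher. Calls were frequent in this comparison, at 23.1% lower and 31% higher of the 12013 genes tested. The replicates lay close together, and none of the 10 members overlapped between the groups, beside 90.5% of all genes that did not overlap.

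ACTA2 was at 18697 and 19512 in Control6 and at 8909 and 9031 under pyruvate, a fall by 1.09 on the log2 scale (SE 0.054, limma adjusted p = 7.04e-09). TAGLN was at 55772 and 58214 in Control6 and at 27520 and 26672 under pyruvate (log2 fold change -1.07, SE 0.050, limma adjusted p = 4.57e-09). CNN1 was at 5806 and 5772 in Control6 and at 2275 and 2284 under pyruvate (log2 fold change -1.34, SE 0.065, limma adjusted p = 5.77e-09). In each of these smooth muscle genes both treated libraries were below both controls, and the replicates of a group differed far less than the groups did.

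MYL9 was at 75435 and 79988 in Control6 and at 26025 and 26227 under pyruvate, a mean 2.97-fold lower (log2 fold change -1.57, SE 0.050, limma adjusted p = 3.64e-10). TPM2 was at 111891 and 129844 in Control6 and at 39370 and 37505 under pyruvate (log2 fold change -1.65, SE 0.067, limma adjusted p = 1.77e-09). These were the members that fell furthest under pyruvate. TPM1 went the other way, from 11514 and 12199 in Control6 to 28336 and 27599 under pyruvate, a mean 2.36-fold higher (log2 fold change 1.24, SE 0.054, limma adjusted p = 2.85e-09).

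CCN1 was at 29604 and 31437 in Control6 and at 13873 and 13729 under pyruvate and fell (log2 fold change -1.14, SE 0.053, limma adjusted p = 4.49e-09). CCN2 was at 45344 and 49010 in Control6 and at 25658 and 26354 under pyruvate (log2 fold change -0.86, SE 0.054, limma adjusted p = 4.75e-08). Both CCN genes were thus lower in every treated library, though the difference in CCN2 was below the size needed for a call. TGFBI was at 70701 and 69986 in Control6 and at 95136 and 94980 under pyruvate (log2 fold change 0.43, SE 0.045, limma adjusted p = 3.52e-06), again below that size. TGFB1 was at 3636 and 3700 in Control6 and at 3459 and 3447 under pyruvate (log2 fold change -0.09, 95% confidence interval -0.23 to 0.056, limma adjusted p = 0.235).

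The calls of the 6 lower members ended when each library was corrected for its trend with the length and GC content of the transcript. In this comparison the log2 fold change fell with the GC content of the transcript across genes (Spearman rho -0.72 over 11888 genes, which share the libraries and are not independent replicates), against -0.11 for A485 and -0.02 for MS-275. The members' transcripts had 50.5% to 63.6% GC, with a median of 54.5%, whereas the median of all genes tested was 48.6%. After removal the median of all genes stood at 0.20, and relative to it the log2 fold change was -0.33 for ACTA2, -0.37 for TAGLN, -0.23 for CNN1, -0.56 for MYL9, -0.57 for TPM2, -0.62 for CCN1 and -0.23 for CCN2. TPM1 stayed called higher at 1.92, and TGFBI at 1.15 and TGFB1 at 1.07 were then called higher too, all relative to that median. With equal library totals, which moved the median of all genes to 0.30, CNN1, MYL9 and TPM2 were still called lower and TPM1 higher. Quantile normalization moved that median to -0.17, and the same genes were called together with TGFBI, higher at 1.06. TGFB1 was positive under both of these scalings, at 0.22 and 0.19. The part of GC content in the pyruvate values was not tested beyond this. The fibroblast markers summed to 882733 to 898877 in Control6 and 781629 to 784713 under pyruvate, though 4 of the 10 were called higher and 1 lower. The 4 listed smooth muscle markers summed to 51445 to 51660 and 22236 to 22361. Most of that sum was ACTG2 (45919 and 46335, then 19670 and 19441), and of the 4 markers 2 were called higher and 2 lower. No epithelial or immune marker was listed, and the 2 listed endothelial markers summed to 358 to 481 in Control6 and 1448 to 1469 under pyruvate. Of these 2, 1 was called higher (log2 fold change 2.32) and 1 lower (-1.71). None of these marker values was tested against the members.

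**Figure D3:**
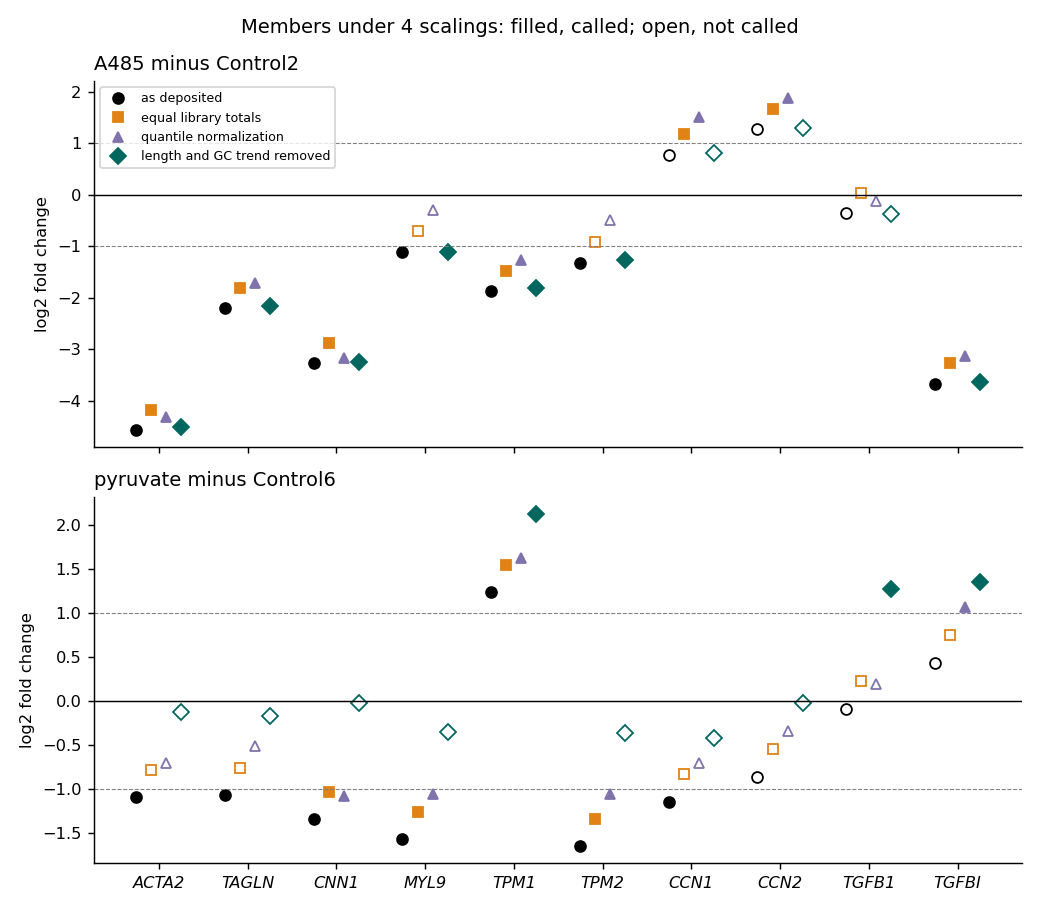
Log2 fold change of each member under A485 (top) and pyruvate (bottom) with the values as deposited, equal library totals, quantile normalization and the length and GC trend removed, where filled symbols were called and open ones were not and the dashed lines mark 1 and -1. Under A485 ACTA2 stays between -4.57 and -4.18, whereas under pyruvate it goes from -1.09 to -0.13 when the trend is removed.

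The treatments were then compared by testing the difference between their effects with limma over the 8 libraries of both comparisons. This fit gave each gene a spread shared by both experiments, although the replicates of the experiments varied unequally. The experiment and the treatment cannot be told apart here, since each treatment was run in its own experiment. The A485 effect was lower than the MS-275 effect in 4 members, beside 3.81% of 15130 genes called in either direction. The difference on the log2 scale was -4.06 for ACTA2 (SE 0.41, adjusted p = 0.00447), -4.20 for TGFBI (SE 0.52, adjusted p = 0.00904), -2.89 for CNN1 (SE 0.40, adjusted p = 0.0116) and -2.49 for TPM1 (SE 0.53, adjusted p = 0.0475). The call of TPM1 ended with equal library totals (-1.95, adjusted p = 0.0832), with quantile normalization (-1.62, adjusted p = 0.122) and when any library but MS-275 replicate 1 was left out (adjusted p from 0.0668 to 0.203). That of CNN1 ended without either A485 library or Control2 replicate 2 (adjusted p from 0.0516 to 0.0683), and that of TGFBI without A485 replicate 1 (adjusted p = 0.0551). For the CCN genes, which lay above the control under both inhibitors, the A485 effect minus the MS-275 effect was -0.22 for CCN1 (95% confidence interval -1.13 to 0.69) and -0.50 for CCN2 (-1.80 to 0.79).

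Against pyruvate, the A485 effect differed in 7 members, where 54.3% of 11993 genes were called. It was lower in ACTA2 (difference in log2 fold change -3.48), TAGLN (-1.13), CNN1 (-1.92), TPM1 (-3.12) and TGFBI (-4.10), and higher in CCN1 (1.93) and CCN2 (2.13). The MS-275 effect was higher than the pyruvate effect in MYL9 (1.52), CCN1 (2.14) and CCN2 (2.63), where 39% of 12005 genes were called. The shared spread drew on the tighter pyruvate libraries. The SE of the difference was therefore below that of the MS-275 effect alone (0.342 against 0.350 for MYL9, 0.266 against 0.312 for CCN1, 0.304 against 0.328 for CCN2). These calls may thus be too lenient, and the differences between A485 and pyruvate share this limit. The call of MYL9 ended when any 1 of the 4 pyruvate and Control6 libraries was left out (adjusted p from 0.0526 to 0.0646) and with quantile normalization (0.71, adjusted p = 0.0542). TPM1 thus fell under A485 and rose under pyruvate, and TGFB1 was called in none of the 3 comparisons nor in any difference between them with the values as deposited. After removal of the trend on length and GC content, the difference in TGFB1 between A485 and pyruvate was -1.62 and was called. The difference between MS-275 and pyruvate was then no longer called in MYL9 (0.36) and was called in TPM1 (-1.54). Both include the 0.20 by which that removal moved the median of all genes under pyruvate.

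**Figure D4:**
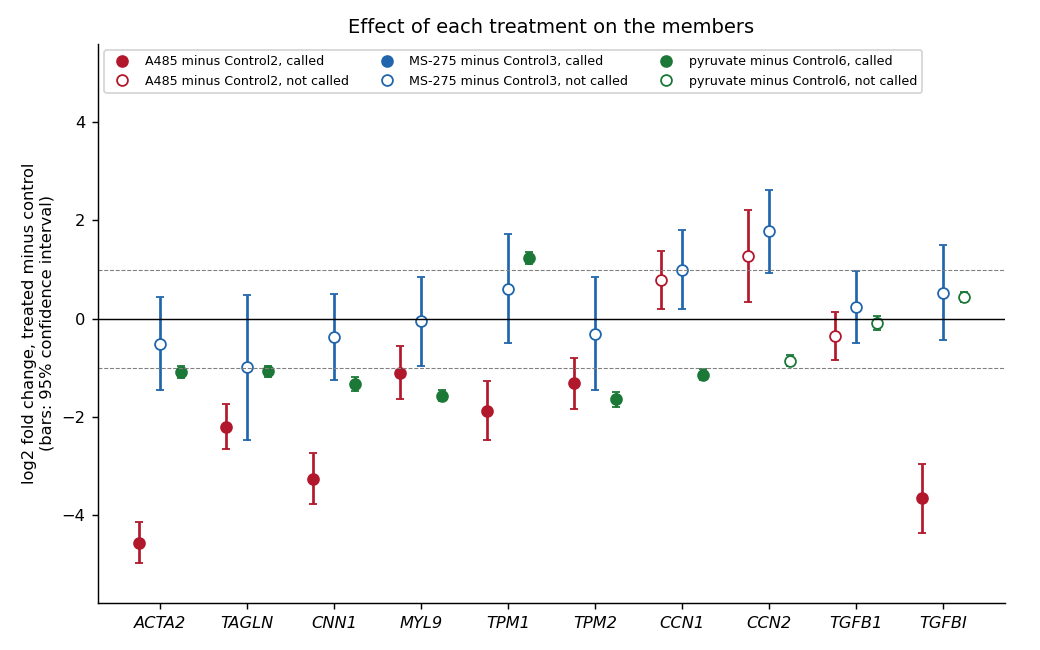
Log2 fold change (treated minus control) of each member under A485, MS-275 and pyruvate, with bars for the 95% confidence interval from limma, filled symbols for called genes and dashed lines at 1 and -1. CCN2 lies at 1.27, 1.78 and -0.86, and TPM1 at -1.88, 0.61 and 1.24 in that order.

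The rest of the pathway was read from 7 lists of genes. These lists too were chosen with earlier results of these data known, so their counts are a description and no independent support. Under A485 the lists of contractile and response genes shifted in the direction of the contractile members, whereas no receptor was called. Of 20 other contractile and actin-binding genes tested 11 were called lower and 0 higher, with a median log2 fold change of -1.34. Among all genes tested under A485, 7.06% were called lower and 3.31% higher, and the counts of the lists stand beside these shares. ACTG2, γ-smooth muscle actin, went from 21490 and 25333 to 326 and 238 (log2 fold change -6.38, limma adjusted p = 0.000721). MYLK, the kinase that phosphorylates the light chain encoded by MYL9, went from 38583 and 81984 to 2051 and 3113 (-4.48, adjusted p = 0.00287), and CNN2, a calponin of non-muscle cells, from 25434 and 29707 to 4641 and 5956 (-2.39, adjusted p = 0.00268).

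Of 16 other TGF-β response genes 9 were called lower under A485, with a median of -1.81, among them the matrix gene POSTN (-3.63), the collagen cross-linking enzyme LOX (-2.77) and the transcription factor SNAI2 (-3.71). Of 9 ligand and latency genes 4 were called lower. INHBA, which encodes the activin A subunit, was at 9352 and 10707 in Control2 and at 228 and 338 under A485 (-5.17, adjusted p = 0.000812), and THBS1 (-2.83), an activator of latent TGF-β, and the latent TGF-β binding protein LTBP2 (-1.59) also fell. None of 11 receptor genes was called, and the smallest p was that of BMPR1A (0.76, adjusted p = 0.03), which was called higher with equal library totals (1.15). SMAD3 (-2.25) and the ubiquitin ligase SMURF2 (-1.59) were the 2 of 14 SMAD factors and regulators called (14.3%, beside 7.06% of all genes called lower). Among 10 SRF and YAP factors 2 were called lower, SRF itself (-1.03, and -0.63 and not called with equal library totals) and its cofactor MYOCD, which was at 1524 and 913 in Control2 and at 11.8 and 3.56 under A485 (-7.27, adjusted p = 0.00263). Of 8 YAP response and other CCN genes 1 was called (12.5%), CCN3, from 380 and 348 to 18.5 and 3.56 (-5.27). CCN3 thus fell while CCN1 and CCN2 did not. In the lists of SMAD, SRF and YAP, and CCN genes only 1 or 2 genes were called, so their shares say little about the lists.

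Under MS-275 no gene of these lists was called. The test of this comparison recovered 0% of log2 shifts of 2 in simulated libraries, which were drawn independently, unlike the real ones. The gene with the smallest p was ANKRD1, a YAP target, at 169 and 190 in Control3 and 1736 and 4063 under MS-275 (log2 fold change 3.88, limma adjusted p = 0.163). The treated libraries lay far above both controls but far apart from each other. The smallest p in the other lists belonged to INHBA (1.98), TGFBR2 (1.07), SMAD1 (-1.16), TGFB1I1 (-1.15), MYH10 (-0.90) and TEAD2 (-1.47), given as log2 fold changes.

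Under pyruvate all genes tested split into 31% called higher and 23.1% called lower, and the counts of the lists stand beside these shares. Of 19 other contractile and actin-binding genes 7 were called higher (36.8%) and 4 lower (21.1%), near the shares of all genes. ACTG2 fell (-1.24) with ACTA2, while the tropomyosin TPM4 (1.62) and caldesmon, CALD1 (1.62), rose with TPM1. Of 11 receptor genes 5 were called higher and 2 lower, with TGFBR1, the type I receptor, higher (2.71) and the receptors best known from endothelium, ENG (-1.61) and ACVRL1 (-1.76), lower. Of 14 SMAD factors and regulators 6 were called higher and 1 lower, and the smallest p were those of SMAD4 (2.88), SMAD5 (2.52) and SMURF2 (1.502).

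Of 15 other TGF-β response genes 4 were called higher (26.7%) and 1 lower (6.67%) under pyruvate. Among the higher were POSTN (3.37) and ID3 (1.75), given as log2 fold changes. Of 9 ligand and latency genes LTBP3 (-1.58) and TGFB3 (-1.65) fell and INHBA (1.78) rose. Of 10 SRF and YAP factors 5 were called higher and 1 lower, and the smallest p were those of YAP1 (2.203), TEAD1 (2.32) and WWTR1 (1.62), which encodes TAZ. CCN4 rose from 306 and 301 to 4687 and 4698 (3.95), against the direction of CCN1 and CCN2, and was the 1 gene called of 8 in its list.

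Most of the pyruvate calls named in these lists ended once the trend with length and GC content was taken out, a step that moved the median of all genes to 0.20. The genes named as lower were then at -0.31 (ENG, 62.7% GC), -0.32 (LTBP3, 67.7% GC), -0.81 (ACVRL1), -0.92 (TGFB3) and -0.23 (ACTG2) on the log2 scale, and none of these 5 was called. ACTG2 was also not called with equal library totals (-0.93) or quantile normalization (-0.69). Of those named as higher, TGFBR1 (0.95, 38.8% GC), SMAD5 (0.78, 36.9% GC), TEAD1 (0.90), WWTR1 (0.22), CALD1 (0.11), INHBA (0.04) and SMURF2 (-0.05) were no longer called. CCN4 (3.19), ID3 (3.02), POSTN (1.94), TPM4 (1.65), SMAD4 (1.18) and YAP1 (1.02) were still called higher.

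**Figure D5:**
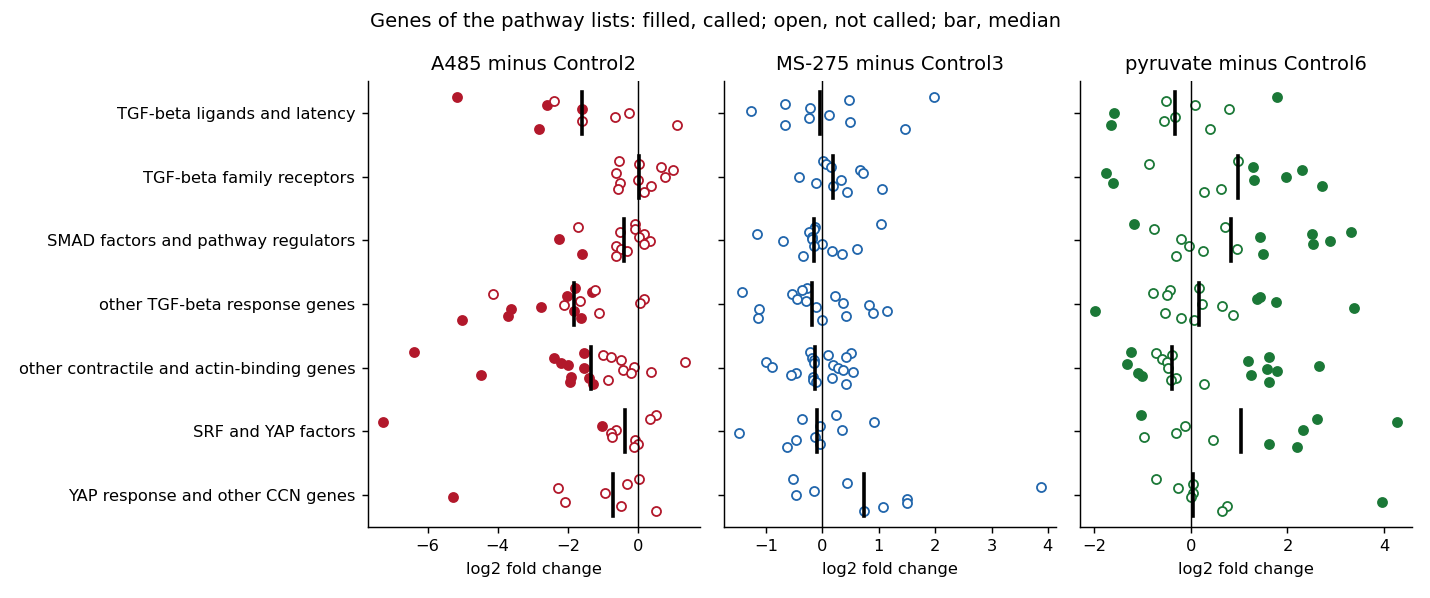
Log2 fold change of each tested gene of the 7 pathway lists under the 3 treatments (x axes differ), where filled points were called, open points were not and black bars are medians. Under A485 the medians of the response list (-1.81) and the contractile list (-1.34) are below 0 and that of the receptors (0.02) is near it, and under MS-275 no point is filled.

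Levels of the members were compared with each other within a library, per kb of the annotated transcript. In the Control2 libraries TPM2 was highest, at 72375 and 76862 normalised reads per kb, followed by TPM1 (43681 and 31162), TGFBI (22409 and 37478) and MYL9 (20786 and 25445), of which neighbours overlapped. The lowest were TGFB1 (3048 and 2357) and CNN1 (2191 and 2402), which also overlapped. Under A485 the order changed, with CCN2 highest (44683 and 37591 per kb), ahead of TPM2 (31064 and 28886) and CCN1 (25918 and 33019), which overlapped, and with ACTA2 (432 and 502) and CNN1 (271 and 209) lowest. ACTA2 went from a percentile of 98.6 among all genes of each Control2 library to 68.7 and 71.2 under A485.

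Over the 12 libraries, each centred on its own experiment, the genes most like ACTA2 among 9769 were SPOCD1 (Pearson r 0.995), CNN2 (0.992), CCL2 (0.988), ACTG2 (0.986) and PYCR1 (0.984). These points share libraries, and ACTA2 ranged most widely in the A485 experiment, so r is given as a description. Of the members, CNN1 was closest to ACTA2 (0.982, rank 9), followed by TGFBI (0.903) and TAGLN (0.902). TPM1 was at 0.62, CCN1 at -0.35 and CCN2 at -0.49, although under pyruvate both CCN genes were lower, as ACTA2 was.

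Some members share sequence or position with other genes, and the strand setting of the counting is not given in the sources used here. ACTA2 and ACTG2 encode closely similar actins, and whether reads were shared between them was not tested. ACTA2 also overlaps its antisense gene ACTA2-AS1, which was at 96.3 and 78.3 in Control2 and at 8.43 and 0 under A485, far below ACTA2 itself. It overlaps FAS, at 1902 and 2464 in Control2 and at 1151 and 1530 under A485, there above ACTA2. It overlaps STAMBPL1 as well, at 3435 and 2242 in Control2 and at 456 and 381 under A485. Reads shared with these genes could change the values of ACTA2, which was not tested. TAGLN overlaps PCSK7, TPM1 overlaps TPM1-AS, CCN2 overlaps LINC01013, and TGFB1 overlaps HNRNPUL1, CCDC97 and TMEM91. HNRNPUL1 was at 13512 and 11799 in Control2, above TGFB1, so reads shared between them could change the values of TGFB1.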

How the data were processed

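RNA sequencing of IMR90 cells gave 12 libraries, 2 in each of 6 groups taken from the titles. The submitters' processing notes name Trim Galore 0.6.10, HISAT2 2.2.1, SAMtools 1.7, featureCounts 2.0.6, DESeq2 1.34.0 and the build hg38; the annotation is not given in the sources used here. The deposited unit is a signal: with DESeq2 the authors divided the read count of each gene by a size factor of its library, separately for each experiment. In 100% of values these were whole multiples of 1 read (tolerance 0.01). Replicates differed by more than sampling noise (chi-square per gene 4.54 to 455.6) and were kept apart.

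Values were set to log2(value + 1), which understates changes of low genes, and genes whose mean reached 10 entered limma 3.58.1 in R 4.3.3 (eBayes with trend, no covariate, two-sided, Benjamini-Hochberg adjustment). Differences between effects were limma contrasts. Members and lists were chosen with earlier results of these data known. Named were the 10 members, in each list the 3 called genes with the smallest p or otherwise the 1 gene with the smallest p, and the 5 genes most like ACTA2. Of the genes so named, 1 is not reported here. Marker lists covered fibroblast, smooth muscle, epithelial, endothelial and immune cells. Positions, lengths and GC content came from GENCODE (98.4% to 99% of genes matched) and promoters from RefSeq for 7 of 10 members. Alternatives were the pseudocount (0.1, 10), the filter (none, 50), scalings, no trend, the replicate block, leaving out libraries, a smaller minimum fold change (0.58) or no minimum, 1 fit over all 12 libraries, a trend on length and GC content removed (splines with 4 degrees of freedom), and, for A485, edgeR 4.0.16 and DESeq2 1.42.0 on the recovered reads. Scripts were tested on simulated data. There, with libraries drawn independently, a log2 shift of 1.2 was recovered in 26% of altered genes for A485, 0% for MS-275 and 89% for pyruvate. Figures used Python 3.11.15 and matplotlib 3.10.9.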

Additional observations from a re-analysis of the deposited data

How the results depend on the processing

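The pseudocount, the filter on low values and recomputed size factors changed no call of a member in any comparison. For A485 the members called were 7, and 4 to 6 when 1 library was left out (4 without either A485 library, 5 without Control2 replicate 1, 6 without Control2 replicate 2). Without the intensity trend MYL9 and TPM1 were no longer called. edgeR on the recovered reads called the 7, and DESeq2, the replicate block and the fit shared by 12 libraries also called CCN2 higher. TGFB1 under A485 was at 0.043 with equal library totals. Over all genes A485 gave 532 higher and 1135 lower calls, 258 and 582 without the trend, and 229 to 1284 in all when 1 library was left out; without A485 replicate 1 there were 14 higher and 215 lower, and without A485 replicate 2 there were 11 and 290. For MS-275 the 0 members called became 1 (CCN2) with the replicate block, with the block and the length and GC trend removed, and in the fit shared by 12 libraries, and over all genes 0 calls became 1230 higher and 953 lower, 1095 and 863, and 220 and 267. Leaving out 1 library gave 33 to 444 calls over all genes and none among the members; MYL9 then ranged from -0.34 to 0.24 and TPM2 from -0.72 to 0.10. The labels do not say that a number pairs libraries, and with 2 pairs the numbers were not taken as pairs; same-number libraries deviated together with r of 0.32 for A485, 0.73 for MS-275 and 0.002 for pyruvate. For pyruvate the 7 members called became 4 with equal library totals and 3 with the length and GC trend removed, with or without the block, and 2422 higher and 1144 lower of all genes were then called against 3726 and 2777. TGFB1 stood at 0.22 with equal totals, 0.19 with quantile normalization and 1.27 with the trend removed, and SMURF2 at -0.051. Keeping each library's median instead of its mean after that removal was tried once its values had been seen: 3 members were called, TGFB1 was at 1.341, CNN1 at 0.047 and CCN2 at 0.043, while values relative to the median of all genes were the same. The share of higher calls was 57.3% for pyruvate, 71.7% with equal totals and 49.3% with quantile normalization, and 42.6% for A485 with the latter. The 4 members whose A485 and MS-275 effects differed became 7 with the replicate block and ranged from 1 to 4 when a library was left out (1 without A485 replicate 1, 2 without A485 replicate 2 or Control2 replicate 2). The 3 members that differed between MS-275 and pyruvate became 5 without MS-275 replicate 1 or Control3 replicate 2, and 2 (without MYL9) when any 1 of the pyruvate or Control6 libraries was left out; with quantile normalization MYL9 was lost and TPM1 was called. The causes of these changes were not tested. All members stood at 314 normalised reads or more in every library, and what depth limits was not tested further.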
